A study of Mus musculus with 13 samples.

Results

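The genes described here are the neighbours of Hmox2 at the start of mouse chromosome 16. They are all genes of the deposited files that begin within the first 9.6 Mb of the chromosome in GRCm39 (GENCODE M39), with Hmox2 itself left out. This gave 76 of the 36109 genes measured. Of these, 53 code for a protein and 23 are mostly processed pseudogenes. On the side of the chromosome start lay 40 of them, 35 lay beyond Hmox2, and Cdip1 overlapped it on the opposite strand. RNA was sequenced from aortic endothelial cells (ECs) of 3 Hmox2+/+ and 3 Hmox2-/- mice and from whole hearts of 4 Hmox2+/+ and 3 Hmox2-/- mice. All mice breathed room air, were young, and carried either a deletion of Hmox2 or, as littermates, the wild-type gene. The sources used here name no conditional driver for the deletion, no strain background and no sex. EC RNA was flushed from the aortic lumen with a lysis reagent and the cells were not sorted. The study design speaks of matched pairs of tissues, but no label ties an EC library to the heart library of the same mouse. All 13 libraries were treated as independent, also in the comparison of the tissues, and the p-values measure only the spread between the libraries.

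Hmox2 encodes heme oxygenase 2, the constitutive enzyme that breaks heme down to biliverdin, carbon monoxide and iron. Genes that lie close together on a chromosome tend to be inherited together, and genes on opposite strands can overlap and share sequence. The neighbourhood of Hmox2 holds genes with unrelated jobs. Among them are mitochondrial chaperones (Trap1, Dnaja3), a secreted nuclease (Dnase1), a cAMP-producing enzyme (Adcy9), a calcium-binding protein of muscle (Srl), a p53 target linked to cell death (Cdip1) and the transcriptional coactivator Crebbp. The DNA of the interval was not measured in these libraries.

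Levels are given as CPM, the usual depth-normalized unit (estimated counts relative to the library size, after TMM scaling within a tissue). The libraries held 26067147 to 31619776 estimated counts, except heart Hmox2+/+ replicate 1 with 7268626. Hmox2, which occupies chromosome 16 from 4544216 to 4589816 on the plus strand, was the check of the labels. It stood at 63.9 to 76.2 CPM in the Hmox2+/+ ECs and at 12.6 to 14.8 CPM in the Hmox2-/- ECs. In the hearts it stood at 37.3 to 42.5 CPM and 7.53 to 8.90 CPM. Endothelial markers summed to 2972 to 4343 CPM in the Hmox2+/+ ECs and 5204 to 6404 CPM in the Hmox2-/- ECs (3 of 8 higher and 1 lower). The EC libraries also held smooth muscle (980 to 6042 CPM) and adipocyte (2993 to 4942 CPM) markers. Fibroblast markers summed to 1377 to 2660 CPM in the Hmox2+/+ ECs and 3811 to 4485 CPM in the Hmox2-/- ECs (3 of 4 higher), and macrophage markers to 74.1 to 87.5 CPM and 98.6 to 135 CPM (2 of 3 higher). Cardiomyocyte markers summed to 112 to 454 CPM in the Hmox2+/+ ECs and to 10.2 to 13.3 CPM in the Hmox2-/- ECs, with 7 of 8 lower and none at 0. In the hearts the 3 erythroid markers rose together, from 121 to 222 CPM in sum to 592 to 985 CPM. Of the other heart markers, 3 of 8 endothelial, 2 of 4 smooth muscle, 2 of 8 cardiomyocyte and 1 of 3 macrophage were higher. Lower there were 1 of 8 cardiomyocyte, 1 of 4 fibroblast and 2 of 4 Y-linked markers. The Y-linked gene Ddx3y was near 0 in Hmox2-/- EC replicates 2 and 3 (1.03 and 0.920 CPM) and at 37.0 to 86.5 CPM in the other 11 libraries. Among these, all Hmox2-/- hearts (37.0 to 50.9 CPM) lay below all Hmox2+/+ hearts (61.6 to 86.5 CPM). Such a lack of overlap was seen for 40.4% of all genes in the heart. The 4 Y-linked markers together summed to 148 to 165 CPM in the Hmox2+/+ ECs. In the Hmox2-/- ECs their sum ran from 6.51 to 198 CPM, with a median of 7.14 CPM. Low Y-linked expression in ECs was thus partly confounded with genotype. EC fits with a Ddx3y term are given below. Their genotype effect rests on Hmox2-/- replicate 1, so the part of Y-linked expression in the EC calls cannot be told from them. Its part in the heart calls was not tested. Fewer cells of a type and less RNA per cell cannot be told apart in such samples.

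The neighbours that passed both criteria (adjusted p of at most 0.05 and a log2 fold change of at least 1 in size) in each tissue were Dnase1, Trap1 and Cdip1. Their promoters are shown because these genes passed both criteria in ECs and heart alike. The sequences run from 250 bases before to 50 bases after the annotated start and come from RefSeq in the build GRCm38.p6, which is not the build of the gene positions. Capitals mark motifs searched on both strands: the cAMP response element TGACGTCA, the CCAAT box, the TATA box TATAAA and the GC box GGGCGG. No marked motif overlaps another.
Dnase1, chr16:4036786-4037085, plus strand: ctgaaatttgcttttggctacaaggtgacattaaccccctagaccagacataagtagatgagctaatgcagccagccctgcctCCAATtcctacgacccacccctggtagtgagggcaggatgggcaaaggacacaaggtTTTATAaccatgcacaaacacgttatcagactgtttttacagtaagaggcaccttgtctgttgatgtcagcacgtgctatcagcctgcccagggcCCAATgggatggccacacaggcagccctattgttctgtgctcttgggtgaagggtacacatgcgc
Trap1, chr16:4077761-4078060, minus strand: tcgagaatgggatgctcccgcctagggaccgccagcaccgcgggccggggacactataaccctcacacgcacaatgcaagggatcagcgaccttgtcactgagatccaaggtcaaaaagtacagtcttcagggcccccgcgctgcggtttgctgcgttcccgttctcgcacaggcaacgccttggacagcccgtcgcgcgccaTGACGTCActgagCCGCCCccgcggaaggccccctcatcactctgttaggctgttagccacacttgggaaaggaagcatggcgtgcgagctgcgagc
Cdip1, chr16:4789892-4790191, minus strand: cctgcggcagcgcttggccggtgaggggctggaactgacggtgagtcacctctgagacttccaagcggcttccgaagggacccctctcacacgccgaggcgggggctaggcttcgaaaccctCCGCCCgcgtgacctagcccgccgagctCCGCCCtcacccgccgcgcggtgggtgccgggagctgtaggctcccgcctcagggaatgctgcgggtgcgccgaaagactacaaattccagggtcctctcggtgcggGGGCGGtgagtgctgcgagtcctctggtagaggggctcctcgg

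The Trap1 window held 1 cAMP response element, beginning at -47 from the start, and 1 GC box at -34. Of 32851 RefSeq promoters of the same length, 1.79% held that cAMP response element and 35.7% a GC box. The Cdip1 window held 3 GC boxes, the first at -128. The Dnase1 window held 2 CCAAT boxes, the first at -167, and 1 TATA box at -110, which 37.4% and 13.6% of all promoters held. G and C made up 51%, 62.7% and 69.3% of the Dnase1, Trap1 and Cdip1 windows. These matches describe the letters of the windows, and binding was not measured.

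In ECs, 10 of the 46 neighbours that could be tested differed between the genotypes, 4 higher and 6 lower in Hmox2-/- mice (edgeR, adjusted p of at most 0.05). With upper-quartile scaling in place of TMM, 6 were higher and 4 lower. The main count is 21.7% of those tested, and the share among all 15301 genes tested was 18.1% (10% higher and 8.06% lower). In the heart, 16 of 44 differed, 9 higher and 7 lower, or 36.4%, beside 33.4% of all 13816 genes (17.2% higher and 16.2% lower). Both criteria were met by 6 neighbours in ECs, 3 higher and 3 lower (13.04%, with 9.28% of all genes, 5.39% higher and 3.89% lower). In the heart they were met by 4, of which 3 were higher and 1 lower (9.09%, with 6.71% of all genes, 2.66% higher and 4.05% lower). The rest of chromosome 16 gave 63 of 419 genes in ECs (15.0%) and 119 of 384 in the heart (30.99%). These shares are near the background. Their median log2 fold change was -0.03 in ECs and 0.06 in the heart, and that of all genes was -0.02 and -0.01.

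**Figure D1:**
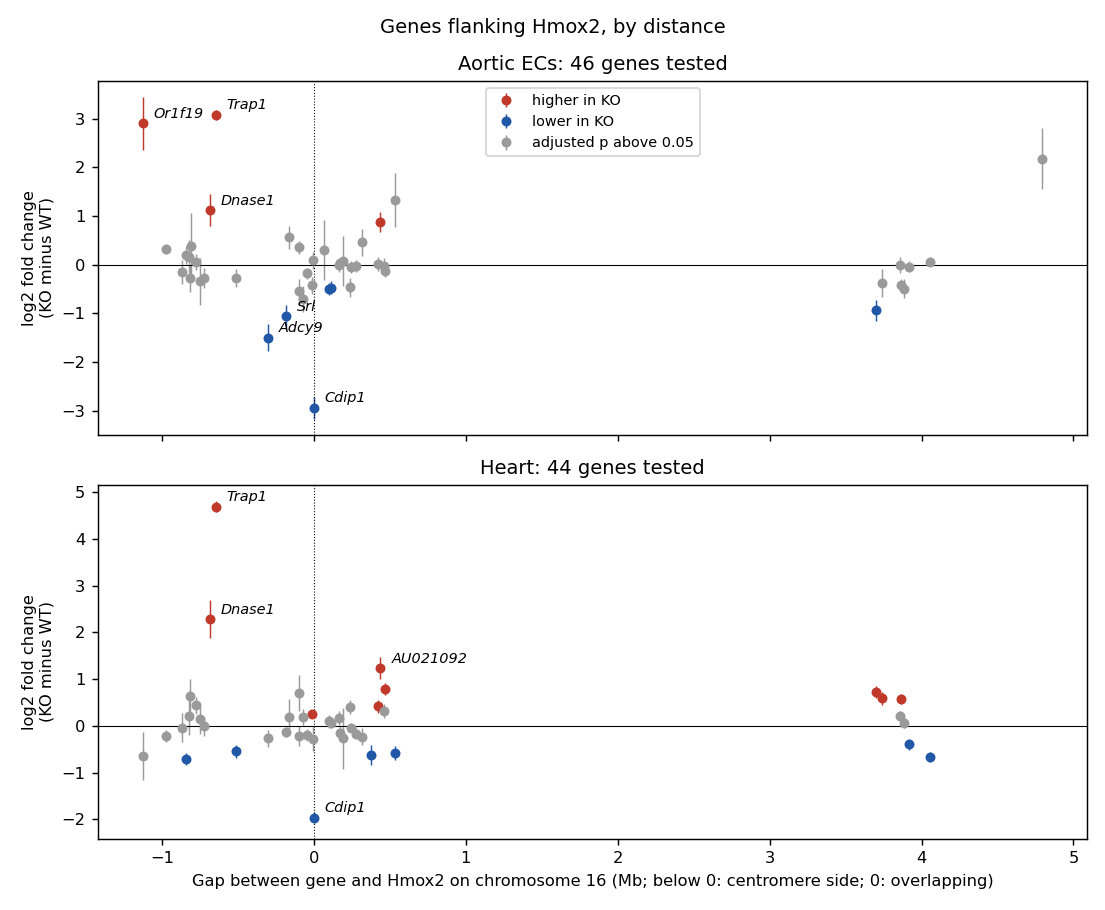
Log2 fold change of each tested neighbour (Hmox2-/- minus Hmox2+/+, with its standard error) against the gap to Hmox2 in Mb, in aortic ECs (above, 46 genes) and heart (below, 44 genes). Genes with an adjusted p of at most 0.05 are coloured and those past both criteria are named. Trap1, 0.649 Mb away, reaches 3.08 in ECs and 4.69 in the heart, and Cdip1, which overlaps Hmox2, reaches -2.94 and -1.96.

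Trap1 had the smallest p-value of the neighbours in each tissue. It encodes the HSP90 chaperone of mitochondria and lies at 3856215 to 3895716 on the minus strand, 648.5 kb from Hmox2. In the Hmox2+/+ ECs it was at 16.7, 17.7 and 16.7 CPM in replicates 1 to 3, and in the Hmox2-/- ECs at 138, 151 and 143 CPM. The 2 groups did not overlap, as for 40.7% of all genes in ECs and 40.4% in the heart, and the mean was 8.47-fold higher (log2 fold change 3.08 ± 0.11 SE, edgeR adjusted p = 1.39e-05). In the hearts it was at 5.06, 6.16, 7.16 and 6.62 CPM in Hmox2+/+ mice and at 176, 162 and 158 CPM in Hmox2-/- mice. Here the mean was 26.5-fold higher (log2 fold change 4.69 ± 0.12 SE, edgeR adjusted p = 2.00e-09). By p-value Trap1 ranked 1 of 13816 genes in the heart and 5 of 15301 in ECs. The rise was larger in the heart by 1.66 ± 0.15 SE on the log2 scale (edgeR interaction, adjusted p = 2.42e-05). All of its counts fell on 1 of its 4 listed transcripts, the protein-coding ENSMUST00000006137, which held 34 to 540 estimated counts in the Hmox2+/+ libraries and 3901 to 5987 in the Hmox2-/- libraries.

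Dnase1, which encodes a secreted endonuclease that degrades extracellular DNA, rose with Trap1 at a far lower level. It lies at 3854806 to 3857888 on the plus strand and overlaps the end of Trap1 tail to tail. In ECs it was at 0.701, 1.00 and 1.05 CPM in Hmox2+/+ mice and at 2.20, 1.95 and 1.88 CPM in Hmox2-/- mice (log2 fold change 1.12 ± 0.32 SE, edgeR adjusted p = 0.0496). Heart levels were 1.19, 0.277, 0.686 and 0.283 CPM in Hmox2+/+ mice and 2.47, 1.996 and 2.87 CPM in Hmox2-/- mice (log2 fold change 2.29 ± 0.40 SE, edgeR adjusted p = 0.00243). The groups did not overlap in either tissue, but the counts were small, 8 to 34 in the Hmox2+/+ libraries and 51 to 96 in the Hmox2-/- libraries. Between 78.1% and 100% of them lay on ENSMUST00000144792, a transcript with a retained intron at 3854962 to 3857887. It overlaps the leading Trap1 transcript by 53 bases on the opposite strand, and the counting did not use the strand. Whether reads of Trap1 contributed to the Dnase1 values was not tested.

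Cdip1, a p53 target that takes part in cell death signalling, fell in both tissues. It lies at 4568212 to 4608164 on the minus strand, so that its 3′ part overlaps the 3′ part of Hmox2. It was at 190, 126 and 126 CPM in the Hmox2+/+ ECs and at 15.97, 18.1 and 23.4 CPM in the Hmox2-/- ECs. The mean was 7.69-fold lower (log2 fold change -2.94 ± 0.23 SE, edgeR adjusted p = 9.57e-04). In the hearts it was at 68.6, 67.8, 62.7 and 61.3 CPM in Hmox2+/+ mice and at 15.1, 16.002 and 19.0 CPM in Hmox2-/- mice. There it was 3.89-fold lower (log2 fold change -1.96 ± 0.11 SE, edgeR adjusted p = 6.16e-07). The groups stood well apart in each tissue, and the fall was larger in ECs by 1.03 ± 0.24 SE (edgeR interaction, adjusted p = 0.00605).

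Because Cdip1 and Hmox2 share sequence, their counts are not fully separate. In the M39 models 39.03% of the 31-base words of Cdip1 occur in another gene, almost all in Hmox2. Some listed transcripts are shorter than those models, and when each model was trimmed at its 3′ end to the listed length the share was 10.8%. For Hmox2 the shares were 73.4% in the models and 45.0% after trimming, mainly with Cdip1, so the Hmox2 levels given above are not fully separate either. The listed sequences were not available, so the trimmed shares assume that all missing bases of both genes lie at the 3′ end. Trimmed in this way, the leading Cdip1 transcript ENSMUST00000118703 shared 0% of its words with Hmox2, beside 48.3% in the full models. It went from 81.4 ± 14.6 to 4.16 ± 2.10 CPM in ECs, here relative to the unscaled library total (SD, n = 3 and 3) and from 30.1 ± 3.02 to 6.76 ± 2.11 in the heart (SD, n = 4 and 3). ENSMUST00000117713, with 0% trimmed and 47.7% in full, went from 34.9 ± 4.75 to 8.09 ± 0.374 in ECs and from 15.2 ± 2.56 to 8.73 ± 1.45 in the heart. ENSMUST00000004173, with 21.2% trimmed and 48.0% in full, went from 19.2 ± 3.48 to 1.34 ± 0.707 and from 12.5 ± 2.29 to 0.699 ± 0.399. The other 4 listed transcripts of Cdip1 had means of at most 4.35 CPM in any group, and some of them were higher in Hmox2-/- mice, among them ENSMUST00000147225, which went from 0.510 to 1.26 in ECs and from 0.146 to 1.53 in the heart. Estimates of transcripts of 1 gene share reads, so no test was made on them.

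**Figure D2:**
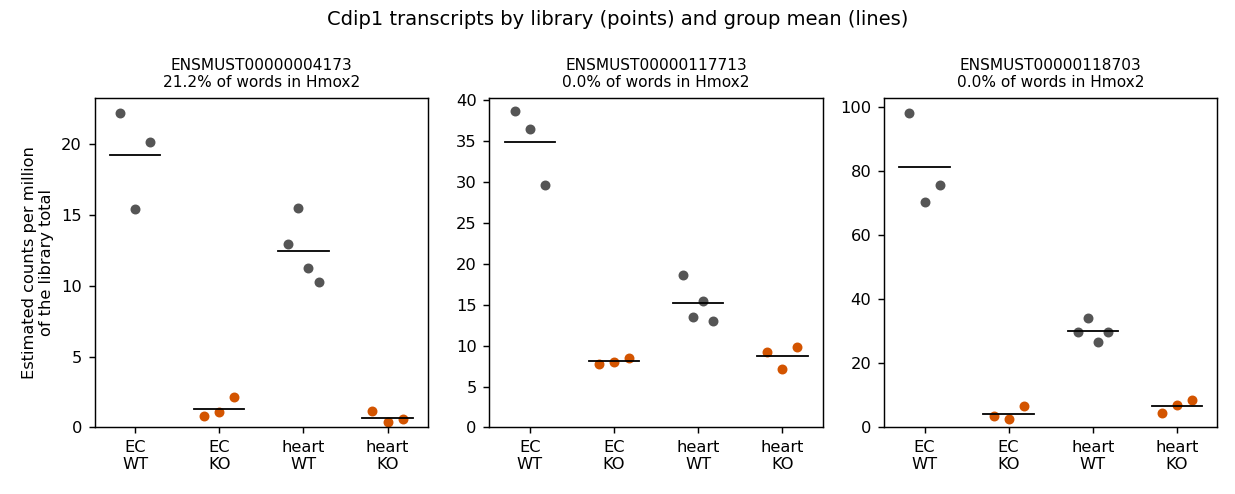
CPM relative to the unscaled library total for the 3 leading Cdip1 transcripts, with a point for each library and a line for the group mean (3 or 4 libraries a group, linear axes from 0). The share of 31-base words found in Hmox2 stands above each panel, for M39 models trimmed at the 3′ end to the listed length. All 3 transcripts are lower in every Hmox2-/- library than in every Hmox2+/+ library of the same tissue.

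AU021092, a protein-coding gene of unknown function 437 kb beyond Hmox2 (5027267 to 5041136, minus strand), was also higher in both tissues. In ECs it was at 37.2, 42.0 and 65.1 CPM in Hmox2+/+ mice and at 85.3, 93.5 and 86.5 CPM in Hmox2-/- mice (log2 fold change 0.88 ± 0.21 SE, edgeR adjusted p = 0.0284). The heart values were 4.31, 2.35, 2.93 and 2.65 CPM in Hmox2+/+ mice and 7.96, 7.68 and 4.79 CPM in Hmox2-/- mice (log2 fold change 1.23 ± 0.23 SE, edgeR adjusted p = 0.00329). The groups did not overlap in either tissue, although 1 Hmox2-/- heart came close to the Hmox2+/+ hearts. With Trap1, Dnase1 and Cdip1 this made 4 of the 43 neighbours tested in both tissues that changed the same way in both, beside 3.15% of all genes tested in both.

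Or1f19, an olfactory receptor gene 1127 kb from Hmox2 (3408906 to 3417187, plus strand), differed in ECs. It was at 0.886, 0.201 and 0.340 CPM in the Hmox2+/+ ECs and at 3.29, 2.84 and 4.52 CPM in the Hmox2-/- ECs (log2 fold change 2.91 ± 0.54 SE, edgeR adjusted p = 0.0141). These are 6 to 24 counts beside 74 to 123. In the hearts it had 6 to 27 counts and a log2 fold change of -0.65 ± 0.51 SE (edgeR adjusted p = 0.350). The change differed between the tissues by -3.52 ± 0.79 SE (edgeR interaction, adjusted p = 0.00550), at low counts throughout.

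**Figure D3:**
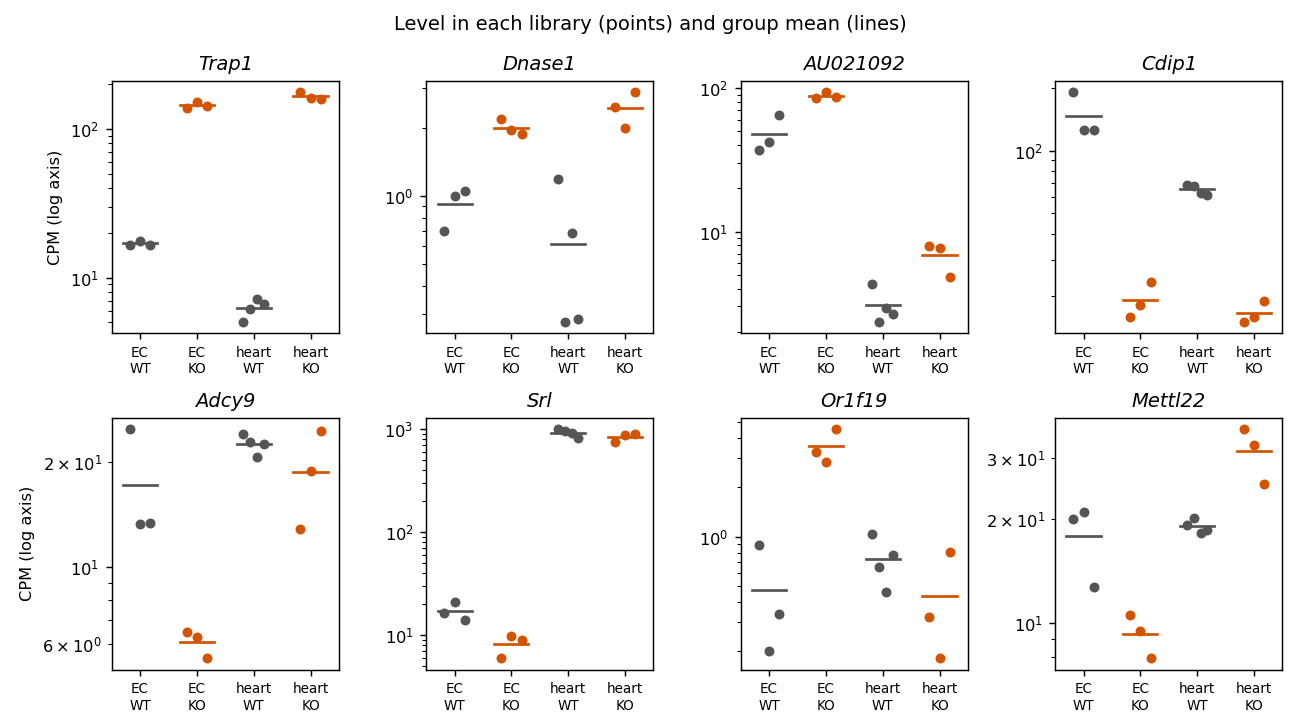
CPM of 8 neighbours in each library (points, log axes) with the group means (lines), for ECs (3 Hmox2+/+ and 3 Hmox2-/- libraries) and heart (4 and 3). Trap1 goes from 17.0 to 144 CPM in ECs and from 6.25 to 165 CPM in the heart, Cdip1 goes down in both, and Srl is at 923 CPM in Hmox2+/+ hearts and 17.1 CPM in Hmox2+/+ ECs.

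Of the 8 genes for signalling and membrane proteins, 6 were tested in each tissue, Grin2a in ECs alone and Sec14l5 in the heart alone. Lower in Hmox2-/- ECs were 3 (Adcy9, Srl and Cdip1), where 8.06% of all genes were lower. Lower in the heart were 2 (Cdip1 and Sec14l5), where 16.2% of all genes were. Adcy9, an adenylate cyclase that makes cAMP downstream of G protein-coupled receptors, lies at 4102752 to 4238428 on the minus strand. It was at 24.9, 13.3 and 13.4 CPM in the Hmox2+/+ ECs and at 6.48, 6.28 and 5.44 CPM in the Hmox2-/- ECs (log2 fold change -1.50 ± 0.27 SE, edgeR adjusted p = 0.0130). The groups did not overlap. In the hearts Adcy9 was at 22.6 ± 1.38 CPM and 18.8 ± 5.91 CPM (SD, n = 4 and 3), a difference of -0.26 ± 0.18 SE that did not pass the test (edgeR adjusted p = 0.280). The change differed between the tissues by 1.28 ± 0.34 SE (edgeR interaction, adjusted p = 0.0134).

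Srl, which encodes the sarcoplasmic reticulum protein sarcalumenin, lies at 4294124 to 4359680 on the minus strand. It was the most abundant neighbour of the Hmox2+/+ hearts per unit of length, at 248 ± 36.2 TPM (SD, n = 4). Its CPM there was 923 ± 77.1 in Hmox2+/+ mice and 842 ± 79.1 in Hmox2-/- mice (log2 fold change -0.13 ± 0.11 SE, edgeR adjusted p = 0.366). In ECs Srl was at 16.2, 21.1 and 14.1 CPM in Hmox2+/+ mice and at 5.95, 9.85 and 8.94 CPM in Hmox2-/- mice (log2 fold change -1.06 ± 0.23 SE, edgeR adjusted p = 0.0239). The summed cardiomyocyte markers were lower in the same Hmox2-/- EC libraries, as given above, from a median of 158 to 10.7 CPM, while the summed smooth muscle markers (3096 to 6042 CPM and 980 to 3447 CPM) overlapped between the genotypes, with 1 of 4 called lower. Their part in the lower Srl and Adcy9 of ECs was not tested.

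The other tested members of that list were not called in ECs by edgeR, while DESeq2 called 4 of the list there in place of 3. Vasn, a secreted and membrane-bound inhibitor of TGF-β, had a log2 fold change of -0.70 ± 0.27 SE there (edgeR adjusted p = 0.106), and Rogdi had -0.46 ± 0.20 SE (edgeR adjusted p = 0.137). Grin2a, an NMDA receptor subunit that extends past the limit of the set, had 1 to 7 counts in Hmox2+/+ ECs and 13 to 23 in Hmox2-/- ECs (log2 fold change 2.18 ± 0.63 SE, edgeR adjusted p = 0.0513). In the heart Sec14l5, a SEC14-like protein, went from 3.30 ± 0.497 to 2.18 ± 0.492 CPM (SD, n = 4 and 3), with a log2 fold change of -0.62 ± 0.22 SE (edgeR adjusted p = 0.0479). Tmem114 had no count in any library.

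Of the 4 mitochondrial proteins, Trap1 rose in ECs and 3 rose in the heart, where 17.2% of all genes were higher. Dnaja3, the mitochondrial HSP40 partner of HSP70 and 15.98 kb from Hmox2, went from 136 to 161 CPM in the heart (log2 fold change 0.25 ± 0.08 SE, edgeR adjusted p = 0.0423). Abat, the GABA-degrading transaminase, went from 18.05 to 26.7 CPM there (0.59 ± 0.14 SE, edgeR adjusted p = 0.00816). Pam16, a part of the protein import motor, had a log2 fold change of 0.71 ± 0.38 SE in the heart (edgeR adjusted p = 0.169), where the shallow Hmox2+/+ library lay far below the others, and its count is uncertain because 36.5% of its words occur in other genes. In ECs the log2 fold changes of Dnaja3, Abat and Pam16 were -0.43, -0.38 and -0.55, and none passed the test.

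Of the 8 tested genes for transcription and chromatin, none was called in ECs by edgeR or by DESeq2, and 3 had an unadjusted edgeR p under 0.05. In the heart 2 were lower, beside 16.2% of all genes. Crebbp, the histone acetyltransferase CBP, went from 26.4 to 18.2 CPM (log2 fold change -0.54 ± 0.14 SE, edgeR adjusted p = 0.0128), and Zfp597, a zinc finger protein, went from 12.3 to 7.59 CPM (-0.71 ± 0.13 SE, edgeR adjusted p = 0.00305). Both had all 3 Hmox2-/- hearts below all 4 Hmox2+/+ hearts. The log2 fold changes of the other 6 genes in the heart (Tfap4, Glis2, Glyr1, Ubn1, Zfp263 and Zfp174) lay between -0.22 and 0.20.

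Enzymes of glycosylation and the lysosomal route were higher in the heart in 2 of 3 cases, beside 17.2% of all genes. Pmm2, the phosphomannomutase that makes mannose-1-phosphate, went from 17.1 to 25.5 CPM (log2 fold change 0.57 ± 0.11 SE, edgeR adjusted p = 0.00320), and Nagpa, which uncovers the mannose-6-phosphate tag of lysosomal enzymes, from 7.70 to 10.3 CPM (0.42 ± 0.15 SE, edgeR adjusted p = 0.0465). Alg1, a mannosyltransferase, had 0.33 ± 0.15 SE (edgeR adjusted p = 0.117). The count of Alg1 is uncertain because 57.9% of its words occur in Eef2kmt, or 14.2% after trimming to the listed length. None of the 3 was called in ECs by edgeR, where Pmm2 had -0.42 ± 0.13 SE (adjusted p = 0.0607) and was the 1 gene of the list with an unadjusted p under 0.05 and the 1 called by DESeq2.

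Among genes for RNA binding and protein modification, 1 of 5 was called in ECs and 3 in the heart, beside 18.1% and 33.4% of all genes. Mettl22, a protein methyltransferase 3699 kb from Hmox2 (8288587 to 8308836, plus strand), was the only neighbour of the 43 tested in both tissues that was called in opposite directions, beside 3.69% of all genes. In ECs it was at 19.97, 20.99 and 12.7 CPM in Hmox2+/+ mice and at 10.6, 9.502 and 7.91 CPM in Hmox2-/- mice (log2 fold change -0.94 ± 0.22 SE, edgeR adjusted p = 0.0279). In the hearts it was at 19.2, 20.2, 18.2 and 18.5 CPM and at 36.3, 32.7 and 25.1 CPM (log2 fold change 0.72 ± 0.13 SE, edgeR adjusted p = 0.00230). The groups did not overlap in either tissue, and the difference between the tissues was 1.70 ± 0.25 SE (edgeR interaction, adjusted p = 5.61e-04). Eef2kmt, which methylates elongation factor 2, rose in the heart from 7.95 to 13.7 CPM (0.79 ± 0.13 SE, edgeR adjusted p = 0.00195). It shares 21.9% of its words with other genes, mainly Alg1 on the opposite strand, and 16.4% after trimming to the listed length. Rbfox1, a splicing regulator of heart and neurons, fell in the heart from 34.2 to 23.0 CPM (-0.58 ± 0.15 SE, edgeR adjusted p = 0.0124). In ECs it had 5 to 14 counts in Hmox2+/+ mice and 15 to 30 in Hmox2-/- mice (log2 fold change 1.33 ± 0.56 SE, edgeR adjusted p = 0.133).

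In the ubiquitin system, the E3 ligase Mgrn1 was lower in ECs (92.1 to 66.5 CPM, log2 fold change -0.47 ± 0.13 SE, edgeR adjusted p = 0.0426) and the deubiquitinase Usp7 was lower in the heart (58.6 to 44.7 CPM, -0.39 ± 0.12 SE, edgeR adjusted p = 0.0294). Of the 3 genes for DNA repair and nucleases, Dnase1 alone passed the test. Slx4, a scaffold for nucleases, had log2 fold changes of -0.28 in ECs and -0.01 in the heart, and Nudt16l1, a regulator of 53BP1, had -0.01 and 0.17. None of the 4 tested genes of the cytoskeleton, junctions and cilia (Ppl, Coro7, Anks3 and Cluap1) was called in either tissue by edgeR or DESeq2. At an unadjusted edgeR p under 0.05 there were 0 in ECs and 1 in the heart. Nmral1, 6.996 kb from Hmox2, had log2 fold changes of 0.09 ± 0.17 SE in ECs and -0.28 ± 0.25 SE in the heart, and Dnaaf8 had 0.07 ± 0.51 SE and -0.26 ± 0.65 SE, none of which passed the test. Outside the lists, Ubald1 fell in ECs (log2 fold change -0.49 ± 0.12 SE, edgeR adjusted p = 0.0345), and Hapstr1, a regulator of stress responses, fell in the heart from 67.6 to 42.7 CPM (-0.66 ± 0.11 SE, edgeR adjusted p = 0.00194).

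The calls were also read by distance from Hmox2, by side and by strand, beside 18.1% of all genes called in ECs and 33.4% in the heart. Within 0.5 Mb, 5 of 23 neighbours were called in ECs (1 higher and 4 lower) and 5 of 23 in the heart (4 higher and 1 lower). Between 0.5 and 1 Mb, 2 of 13 were called in ECs, both higher, and 5 of 12 in the heart. Beyond 2 Mb, 1 of 8 was called in ECs and 5 of 7 in the heart, where the changes were small (log2 fold changes from -0.66 to 0.72). On the side of the chromosome start, 5 of 22 were called in ECs and 5 of 21 in the heart, and on the far side 4 of 23 and 10 of 22. By strand, 4 of 21 neighbours on the plus strand and 6 of 25 on the minus strand were called in ECs, and 8 of 20 and 8 of 24 in the heart. Across neighbours, the size of the log2 fold change and the distance to Hmox2 had Pearson r = 0.04 and Spearman rho = -0.06 in ECs (46 genes) and r = -0.01 and rho = 0.23 in the heart (44 genes). These genes share their libraries and are not independent, so no p-value was computed. Of the neighbours that overlap a gene on the opposite strand, 4 of 27 were called in ECs and 7 of 26 in the heart, and of those without such an overlap 6 of 19 and 9 of 18.

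The effect of the genotype was then compared between the tissues. A tissue by genotype difference was found for 19 of 47 neighbours (40.4%), beside 28.8% of all genes. The log2 fold change was higher in the heart than in ECs for 13 of them and lower for 6. Further differences were those of Pmm2 (1.03 ± 0.16 SE, edgeR interaction, adjusted p = 7.64e-04), Eef2kmt (0.96 ± 0.18 SE, adjusted p = 0.00234), Hapstr1 (-0.68 ± 0.15 SE, adjusted p = 0.00534) and Rbfox1 (-1.88 ± 0.44 SE, adjusted p = 0.00644). For Dnase1 and AU021092 the heart exceeded ECs by 1.15 ± 0.58 SE and 0.41 ± 0.32 SE, which did not pass the test (edgeR interaction, adjusted p = 0.153 and 0.357). Of the 43 neighbours tested in both tissues, 23 were called in neither.

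**Figure D4:**
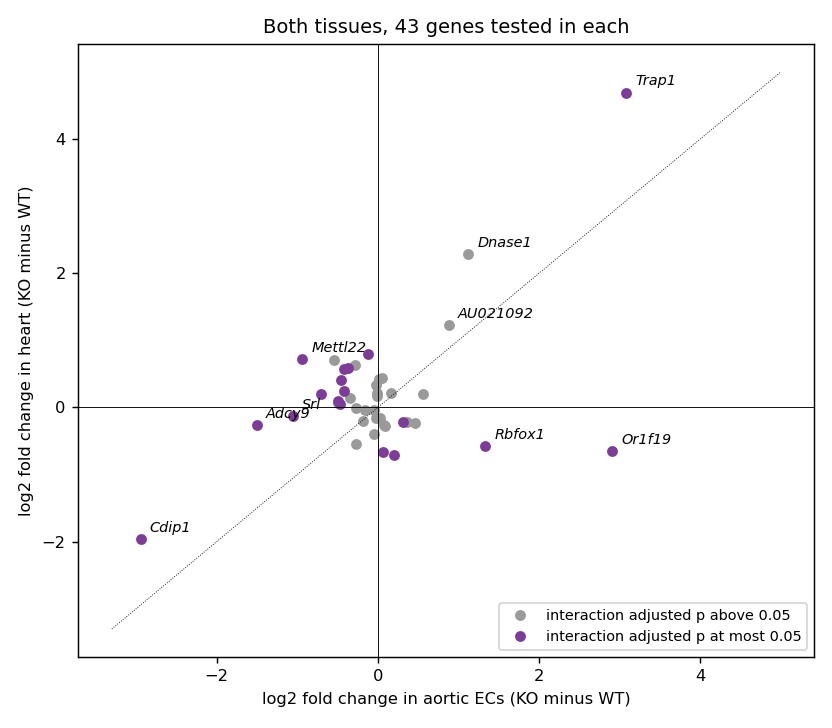
Log2 fold change in the heart against that in ECs (Hmox2-/- minus Hmox2+/+) for the 43 neighbours tested in both tissues, with the line of equality dotted and genes with a tissue by genotype difference in purple. Trap1 (3.08 and 4.69) and Cdip1 (-2.94 and -1.96) lie far out with the same sign, Dnase1 and AU021092 lie above 0 on both axes, and Mettl22 and Or1f19 lie in quadrants of opposite sign.

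Levels per unit of length, as the mean TPM within a group, show what the changes did to the order of the neighbours. In the Hmox2+/+ ECs Cdip1 (66.0 ± 5.19 TPM), Carhsp1 (63.9 ± 17.0 TPM) and Dnaja3 (62.6 ± 10.5 TPM) were highest and did not differ beyond their spread (SD, n = 3). Trap1 was at place 26 with 8.47 ± 1.44 TPM. In the Hmox2-/- ECs AU021092 (77.4 ± 3.95 TPM) and Trap1 (70.2 ± 4.28 TPM) led, and Cdip1 was at place 20 with 11.1 ± 2.26 TPM. In the Hmox2+/+ hearts Srl was followed by Mgrn1 (64.1 ± 8.87 TPM) and Dnaja3 (52.8 ± 5.39 TPM), with Trap1 at place 30 (2.65 ± 0.332 TPM). In the Hmox2-/- hearts Trap1 was at place 2 with 87.6 ± 2.61 TPM (SD, n = 3), next to Mgrn1 (82.4 ± 12.5 TPM), from which it did not differ beyond the spread.

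Most EC calls were lost when a library was left out, which also lowered the share of all genes called to between 4.07% and 10.6% in 5 of the 6 cases. Trap1 and Cdip1 kept theirs whichever EC library was left out. Or1f19 and Adcy9 lost theirs without Hmox2-/- replicate 3 (edgeR adjusted p = 0.0640 and 0.0637), with log2 fold changes of 2.71 and -1.41. AU021092, Mettl22 and Ubald1 lost theirs without any library other than Hmox2+/+ replicate 3 (adjusted p from 0.0527 to 0.119), and so did Mgrn1 (0.0766 to 0.136). Srl lost its call without Hmox2+/+ replicates 1 or 2 or Hmox2-/- replicates 1 or 3 (0.0507 to 0.0816), and Dnase1 without any 1 of the 6 (0.0574 to 0.135). Where these calls were lost the log2 fold changes stayed near the full values, from 0.72 to 0.90 for AU021092, from 0.97 to 1.23 for Dnase1 and from -1.10 to -0.86 for Srl. With a term for Ddx3y under or over 10 CPM in the fit, the log2 fold changes in ECs were 3.02 for Trap1 and -3.20 for Cdip1. Only Hmox2-/- replicates 2 and 3 were under that level, so the genotype effect in that fit rests on Hmox2-/- replicate 1. In the heart, Dnaja3, Rbfox1, Usp7, Nagpa and Sec14l5 lost their calls without 1 or more single libraries (adjusted p from 0.0524 to 0.173). The other 11 kept theirs.

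The remaining neighbours were hardly expressed. In neither tissue could 29 be tested, namely the 23 that code for no protein and the genes Mefv, Or2c1, Septin12, Smim22, Tmem114 and Litafd. Their highest estimated count in any library was 11, and 17 of them had no count at all. Gm20695, 4930562C15Rik and Grin2a were tested in ECs alone and Sec14l5 in the heart alone.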

How the data were processed

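RNA of aortic ECs and hearts was sequenced as oligo-dT directional paired-end libraries. The authors quantified each library with kallisto 0.44.0 at default settings, which do not use the strand, and deposited 1 table per library with estimated counts and TPM for each transcript, not normalized between libraries. Their methods name GENCODE M32 (GRCm39) as the index, while the submitters' processing notes list mm10 and GRCh38.p13. Of 118489 listed transcripts, 97.2% matched GENCODE M39 by identifier without version, and the others held 0.755% to 1.01% of the counts. All 304 transcripts of the neighbours had another version than in M39, and 217 had the same length.

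Gene totals are the rounded sums of the estimated counts of their transcripts. Within each tissue, genes kept by filterByExpr (minimum count 10) were TMM-scaled, and edgeR 4.0.16 (R 4.3.3) fitted a quasi-likelihood model to all genes, with Benjamini-Hochberg adjustment. A gene was called at an adjusted p of at most 0.05, and both criteria also required a log2 fold change of 1 or more in size. SE is the log2 fold change divided by the square root of F. A tissue by genotype term was fitted over all 13 libraries. DESeq2 1.42.0 was an alternative. Shared sequence was counted as 31-base words of M39 transcripts, with 20% as the limit.

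The members, gene lists and markers were chosen with earlier results of these data known. Named were the members of the role lists, protein-coding ones within 0.5 Mb of Hmox2, Trap1, Cdip1, Dnase1, Adcy9, Srl and every member past both criteria. Values in each library were given for members past both criteria, and for Mettl22, added after its values were seen, as was Hapstr1. Promoters were matched by symbol to RefSeq for 39 members.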

Additional observations from a re-analysis of the deposited data

Results flagged for a closer look

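In 19 neighbours the effect of the genotype differed between the tissues (edgeR tissue by genotype term, adjusted p of at most 0.05). As log2 fold change in the heart minus that in ECs, the difference was 1.66 for Trap1, 1.03 for Cdip1, 1.28 for Adcy9, 0.97 for Srl and 0.93 for Vasn. It was 0.71 for Dnaja3, 0.63 for Ubald1, 0.57 for Mgrn1, 0.91 for Rogdi and 0.96 for Eef2kmt. For the genes beyond 2 Mb it was 1.70 for Mettl22, 1.00 for Abat, 1.03 for Pmm2 and -0.68 for Hapstr1. Lower effects in the heart were also found for Or1f19 at -3.52, Zfp263 at -0.49, Zfp597 at -0.86, Sec14l5 at -2.33 and Rbfox1 at -1.88. Sec14l5 was below 0.5 CPM in all EC libraries.

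In the Hmox2+/+ hearts, replicate 1 stood apart from the other 3 for 2 of 44 neighbours, and chance gives about 1 group in 20. Zfp174 was at 3.87 CPM there and at 2.58 to 2.70 CPM in the others. Pam16 was at 0.892 CPM there and at 8.24 to 8.53 CPM in the others. This library was also the shallowest, with 7268626 estimated counts, and the part of depth in these values was not tested.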

How the results depend on the processing

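None of the 10 EC and 16 heart calls changed direction under the alternatives run, which were not computed for single neighbours that were not called. Trap1 kept its call in all 15 EC and all 14 heart alternatives, and Cdip1 in all 14 heart alternatives and in 14 of 15 in ECs. Of the 10 EC calls 1 held in every alternative, and of the 16 heart calls 9. Fitting all libraries together gave 10 neighbours lower in ECs in place of 6, with 27.1% of all genes called there in place of 18.1%. With Ddx3y expression as a term, 1 was higher, 1 lower and 2 passed both criteria in ECs, where the share of all genes called fell to 1.36%. With the EC libraries that express Ddx3y only, an alternative chosen after seeing the data that leaves 1 Hmox2-/- library, assumed to vary like the others, these counts were 1, 0 and 1 (0.299% of all genes called), and Cdip1 had a log2 fold change of -3.20 (edgeR adjusted p = 0.0527). Leaving out 1 library at a time gave 1 to 5 neighbours higher and 1 to 10 lower in ECs and 2 to 8 past both criteria. In the heart it gave 7 to 10 higher, 4 to 8 lower and 4 to 5 past both criteria. The same way in both tissues changed 2 to 5, and 15 to 21 had a tissue by genotype difference. Across these fits the share of all genes called ran from 4.07% to 22.9% in ECs and from 20.5% to 40.3% in the heart. For the tissue by genotype term it ran from 20.6% to 31.9%. The fewest EC calls, 1 higher and 1 lower, came without Hmox2-/- replicate 3 (4.07% of all genes called), and 10 lower came without Hmox2+/+ replicate 3 (22.9% of all genes called). Without heart Hmox2-/- replicate 2, 4 were lower in the heart (20.5% of all genes called). Within a tissue, Hmox2+/+ and Hmox2-/- replicates with the same number did not deviate together (correlations of 0.18, 0.04 and 0.09 in ECs and -0.03, 0.08 and 0.04 in hearts). This check does not bear on the pairing of EC and heart libraries. With the replicate block 3 were higher and 5 lower in ECs, 8 higher and 5 lower in the heart, 3 changed the same way in both and 17 differed between the tissues. The shares of all genes called with the block were 17.8% in ECs, 21.0% in the heart and 25.8% for the tissue by genotype term. Upper-quartile scaling gave 6 higher and 4 lower in ECs (18.8% of all genes called). DESeq2 called 5 higher and 7 lower in ECs, where it called 26.4% of all genes. Counts under 30 limit the precision, as for Grin2a, for Or1f19 in the Hmox2+/+ ECs and the hearts, and for Dnase1 in the Hmox2+/+ hearts. The cause of the other changes was not tested.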
